A study of Mus musculus with 8 samples.

Results

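The 4 subunits of G protein-gated inwardly rectifying potassium channels (GIRK channels) and the 2 subunits of the GABA-B receptor were followed in femoral shaft bone of mice with and without Girk3. The 6 members were chosen by name, as the genes Kcnj3, Kcnj5, Kcnj6, Kcnj9, Gabbr1 and Gabbr2, out of the 49315 Ensembl gene rows of a bulk RNA sequencing table, and all 6 were present in it. The series holds 8 libraries, 4 from wild-type males (WT) and 4 from males labelled Girk3 KO, homozygous for the deletion. All mice were 24 weeks old and labelled C57BL6. The deletion is given as Girk3-/-, with no promoter-driven Cre named, and the part of Kcnj9 that was removed is not given in the sources used here. Per the extraction protocol, the bone ends were cut away and the marrow was flushed out before RNA was extracted. The design text names the shafts as the part cut off, but gives shaft bone as the tissue kept. Each library was taken as 1 mouse, since the labels state 4 mice per group.

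GIRK channels are tetramers that let potassium leave the cell and so make it less excitable. They open when a receptor coupled to a Gi/o protein is activated and the freed beta-gamma dimer of that G protein binds the channel. Kcnj3 encodes GIRK1, which needs a partner subunit to reach the membrane, Kcnj6 encodes GIRK2, Kcnj9 encodes GIRK3 and Kcnj5 encodes GIRK4, which pairs with GIRK1 in the heart. The GABA-B receptor is one of the classical receptors that open these channels in neurons. It works as a dimer in which the Gabbr1 product binds GABA and the Gabbr2 product brings the pair to the cell surface and couples it to the G protein. The series title ties the loss of Girk3 to osteoblast maturation and bone mass.

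The 4 channel genes belong to 1 family, so a coding stretch around the potassium selectivity filter of the pore is shown for each. The filter is the part that makes the channel let potassium through. Its codons lie in the middle of the stretch, with flanking coding bases of equal length on both sides. The share of identical bases is that of the whole stretch, not of the filter alone. Each stretch is 63 bases of coding sequence within 1 exon, read 5′ to 3′ from the GENCODE M21 transcripts, and capitals mark the 41 bases (65.1%) that are identical in all 4 genes.
Kcnj3: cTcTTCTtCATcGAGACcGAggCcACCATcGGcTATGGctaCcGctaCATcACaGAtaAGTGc
Kcnj5: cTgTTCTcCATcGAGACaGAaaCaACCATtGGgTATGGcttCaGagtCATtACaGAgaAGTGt
Kcnj6: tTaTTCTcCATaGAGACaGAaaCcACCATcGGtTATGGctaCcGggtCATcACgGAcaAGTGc
Kcnj9: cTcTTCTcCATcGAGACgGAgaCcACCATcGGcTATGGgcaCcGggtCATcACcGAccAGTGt
On GRCm38 the stretches lie at chr2:55437603-55437665 (plus strand) for Kcnj3, chr9:32322535-32322597 (minus) for Kcnj5, chr16:94832753-94832815 (minus) for Kcnj6 and chr1:172326160-172326222 (minus) for Kcnj9. Between pairs of these stretches, 47 (Kcnj3 and Kcnj5) to 52 (Kcnj6 and Kcnj9) of the 63 bases matched. Over whole transcripts, the longest identical run between any 2 channel genes was 22 bases, between Kcnj5 and Kcnj6. Between Gabbr1 and Gabbr2 it was 43 bases, all of them a repeat of the letters ca.

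The promoters of the receptor pair are shown because the levels of its 2 genes lay furthest apart among the 6 members. Each window runs from 250 bases before the gene's start to 50 bases after it, from RefSeq on GRCm38.p6, written 5′ to 3′ along the gene's strand, with capitals marking each CG dinucleotide.
Gabbr1: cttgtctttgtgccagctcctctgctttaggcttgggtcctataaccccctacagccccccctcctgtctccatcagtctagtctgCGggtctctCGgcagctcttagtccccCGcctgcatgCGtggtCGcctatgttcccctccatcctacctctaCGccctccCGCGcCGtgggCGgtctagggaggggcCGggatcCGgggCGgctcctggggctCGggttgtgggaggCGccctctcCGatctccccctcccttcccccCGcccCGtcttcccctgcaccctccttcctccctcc
Gabbr2: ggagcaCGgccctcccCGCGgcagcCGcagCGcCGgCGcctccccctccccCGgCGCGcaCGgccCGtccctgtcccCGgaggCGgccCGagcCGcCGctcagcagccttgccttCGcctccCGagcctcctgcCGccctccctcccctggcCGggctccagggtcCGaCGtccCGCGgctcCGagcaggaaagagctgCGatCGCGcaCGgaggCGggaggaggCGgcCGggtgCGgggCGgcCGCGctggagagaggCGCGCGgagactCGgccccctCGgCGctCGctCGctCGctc
The Gabbr1 window lies at chr17:37045716-37046015 on the plus strand and holds 18 CG dinucleotides, more than 70.3% of the 32851 promoter windows of the table. The Gabbr2 window lies at chr4:46991665-46991964 on the minus strand and holds 46, more than 98.4% of them. The table held windows for 6 of 6 members, 7 windows in all, and the median over all windows was 7 CG dinucleotides. For the channel genes the count was 5 for Kcnj9, 10 for Kcnj3 and for Kcnj5, and 30 and 9 for the 2 windows of Kcnj6.

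The libraries held 30087749 to 36553713 counts. For comparisons within a gene the unit is CPM, the count over the TMM-adjusted library size (TMM, trimmed mean of M values). Levels between genes are given as RPKM, which is CPM per kilobase of exon. Exon length is the union over all annotated transcripts of a gene, so RPKM and exon length depend on that choice. For Gabbr1 the union is 7764 bases and the longest transcript 5248, and for Kcnj6 they are 7633 and 3627. Values after ± are SDs over n = 4 mice per group unless another n is given. The floor of detection was taken as 3 counts, which is 0.0696 to 0.114 CPM in a single library, 0.0215 CPM over the WT libraries together and 0.0243 CPM over the KO libraries. Floors and Poisson intervals cover counting error only. WT replicate 4 and KO replicate 4 stood apart, at 53.5 and -60.5 on a first principal component that held 33.5% of the variance, against -20.1 to 14.7 for the other 6 libraries. All 14 osteoblast and osteocyte markers, which define the labelled tissue, passed the low-count filter, led by Col1a1, a collagen chain of bone matrix, at 8119 ± 3187 CPM (WT) against 6894 ± 1940 CPM (KO). The 14 genes summed to 9201 to 22157 CPM (WT) and 10213 to 18545 CPM (KO). Skeletal muscle markers were more abundant, with summed levels of 67104 to 124321 CPM (WT) and 106185 to 178210 CPM (KO). Levels given below for bone are thus those of samples rich in muscle RNA.

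Gabbr1 had the highest level of the 6 genes in bone. Over all 8 libraries the mean levels, in RPKM, ran from 4.60 for Gabbr1 through 1.41 for Kcnj5, 0.227 for Kcnj3, 0.0510 for Kcnj9 and 0.0314 for Kcnj6 to 0.0227 for Gabbr2. Gabbr1 lay above Kcnj5, Kcnj5 above Kcnj3 and Kcnj3 above Kcnj9 in 8 of 8 libraries. Below that the order was not separated, since Kcnj9 exceeded Kcnj6 in 5 of 8 libraries and Kcnj6 exceeded Gabbr2 in 5 of 8. Gabbr1 had a higher RPKM than 69.4% of the 21811 protein-coding genes of the table, Kcnj5 than 50.9%, and Gabbr2 than 26.2%. Within each library Gabbr1 had 85.6 times (KO replicate 3) to 1031 times (WT replicate 3) the RPKM of Gabbr2 where Gabbr2 had a count, the highest ratio resting on 1 count of Gabbr2. Gabbr2 had no count in KO replicate 1. In bulk samples, fewer cells of a type and less RNA per cell cannot be told apart.

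**Figure D1:**
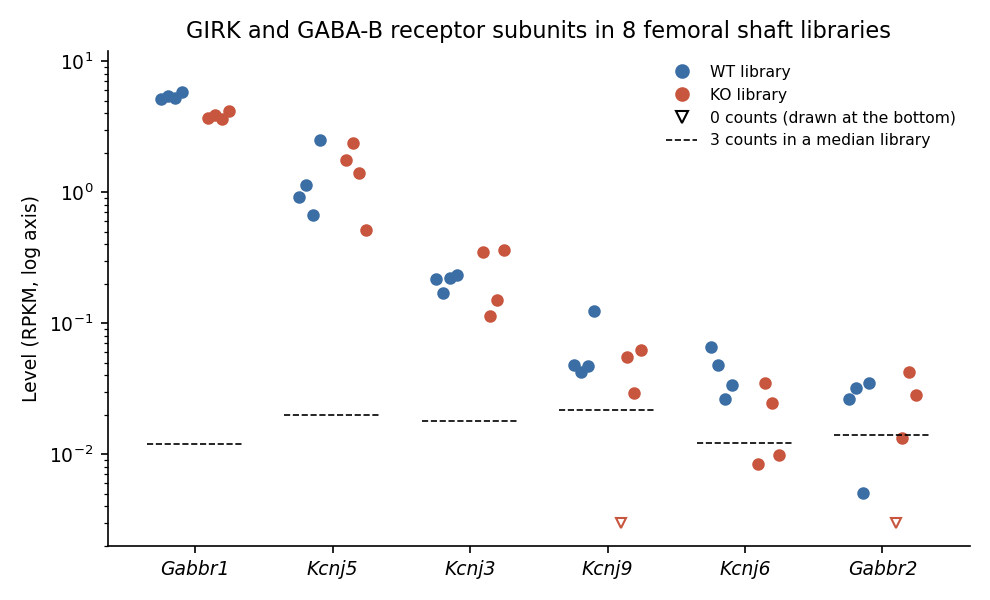
Level of each of the 6 subunit genes in RPKM on a log axis, in the order of the mean level, with 1 point per library (WT blue, KO red). Dashed lines mark 3 counts in a library of median size and open triangles mark 0 counts. Gabbr1 lies between 3.62 and 5.78 RPKM, while the points of Kcnj9, Kcnj6 and Gabbr2 share 1 range between 0 and 0.124 RPKM.

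Kcnj9, the deleted gene itself (ENSMUSG00000038026, chromosome 1, 172320501 to 172329318, minus strand, GRCm38), left so few reads that it could not serve as a check of genotype. WT replicates 1 to 4 held 7, 6, 6 and 23 counts, and KO replicates 1 to 4 held 0, 8, 4 and 7. The 3 lower WT libraries lay inside the KO range, and the groups overlapped. Summed over the groups, 42 counts in WT gave a 95% exact Poisson interval of 0.217 to 0.407 CPM and 19 counts in KO gave 0.0926 to 0.240 CPM. The KO libraries together held more Kcnj9 reads than the floor of 3 counts, and which exons these came from is not recorded in a table of counts per gene. The gene shares 172 of its 4288 exonic bases with the antisense gene Gm36937, which had 3 counts in WT and 4 in KO. The sources used here do not say whether the counting used strand, and without it reads of the 2 genes cannot be told apart. In the edgeR fit without a low-count filter the fold change of KO over WT was 0.544 with a 95% interval of 0.201 to 1.47 (adjusted p = 0.630).

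Kcnj6 (ENSMUSG00000043301, chromosome 16, 94748636 to 94997701, minus strand), the gene for GIRK2, was as scarce. The 4 WT libraries, in order of replicate, held 17, 12, 6 and 11 counts, and the KO libraries 2, 9, 6 and 2. WT replicates 1 and 2 lay above every KO library in CPM, WT replicates 3 and 4 lay below KO replicate 2, and the groups overlapped. The level was 0.331 ± 0.131 CPM (WT) against 0.148 ± 0.0956 CPM (KO), with an exact permutation p of 0.0857. In the unfiltered edgeR fit the log2 fold change was -1.11 (SE 0.58, adjusted p = 0.467), with a 95% interval of -2.32 to 0.10. Kcnj6 shares 380 of its 7633 exonic bases with the antisense gene Gm41505, which was not analysed here.

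Kcnj3 (ENSMUSG00000026824, chromosome 2, 55435970 to 55598145, plus strand), the gene for GIRK1, was low but above the filter. WT replicates 1 to 4 were at 1.14, 0.885, 1.15 and 1.21 CPM, and KO replicates 1 to 4 at 1.83, 0.588, 0.784 and 1.89 CPM. The WT libraries lay close together, while 2 KO libraries lay above all of WT and 2 below. The means, 1.10 ± 0.144 CPM (WT) against 1.27 ± 0.684 CPM (KO), differed by less than the KO spread (exact permutation p = 0.543). The edgeR log2 fold change was 0.21, with a 95% interval of -0.65 to 1.07, and it was not called (DESeq2 adjusted p = 0.836). It was -0.03 without KO replicate 1 and -0.04 without KO replicate 4. The lincRNA gene Gm26794 on the opposite strand covers 31.1% of the exonic bases of Kcnj3, and held 4 counts in WT and 0 in KO. Strand setting and handling of shared reads are not given, so how far this overlap bears on the level of Kcnj3 was not tested.

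Kcnj5 (ENSMUSG00000032034, chromosome 9, 32314707 to 32344350, minus strand), the gene for GIRK4, had the highest level of the channel genes. WT replicates 1 to 4 were at 4.28, 5.31, 3.14 and 11.6 CPM, and KO replicates 1 to 4 at 8.25, 11.2, 6.59 and 2.42 CPM. The highest WT and the lowest KO library were the 2 that stood apart on the first principal component. Over all libraries the level was 6.08 ± 3.79 CPM (WT) against 7.11 ± 3.66 CPM (KO), with an exact permutation p of 0.686, an edgeR log2 fold change of 0.22 and a 95% interval of -0.84 to 1.28 (adjusted p = 0.853). Without WT replicate 4 and KO replicate 4 the level was 4.24 ± 1.09 CPM (WT) against 8.68 ± 2.33 CPM (KO, SD, n = 3 each), and every KO library lay above every WT library. The direction of this shift was fixed in advance, since the highest WT and the lowest KO value were left out. The exact permutation p of 0.1 is the smallest that 3 against 3 can give, and 15.5% of the tested genes had KO wholly above WT in these 6 libraries. The edgeR log2 fold change was then 1.03 (SE 0.25, adjusted p = 0.0554), and it was 0.75 without WT replicate 4 alone, 0.52 without KO replicate 4 alone and -0.08 without KO replicate 2.

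The level of Kcnj5 was set beside that of blood cell markers in each library. The mean log2 CPM of 15 blood cell markers was 6.74, 6.98, 6.70 and 8.05 in WT replicates 1 to 4 and 7.74, 7.37, 7.36 and 6.16 in KO replicates 1 to 4. Within WT the 4 libraries had the same order for Kcnj5 and for the markers, and in KO the library with the least Kcnj5 also had the least of the markers. The upper KO libraries did not share an order, since replicate 2 had the most Kcnj5 and replicate 1 the most of the markers. The same 2 libraries were the extremes of other lists too. Osteoblast and osteocyte markers were highest in WT replicate 4 (mean log2 CPM 6.72) and lowest in KO replicate 4 (5.74). Skeletal muscle markers were lowest in WT replicate 4 (11.1) and highest in KO replicate 4 (12.6). Which cells the Kcnj5 reads came from was not tested. Hbb-bs, a globin gene of red cells, led this list at 2481 ± 1394 CPM (WT) against 2662 ± 815 CPM (KO). The B cell receptor gene Cd79a had the smallest p of it (log2 fold change -0.59, edgeR adjusted p = 0.274). With the blood marker level as a covariate in edgeR, the log2 fold change of Kcnj5 was 0.21 and its SE fell from 0.48 to 0.21 (adjusted p = 0.562). With the muscle marker level as the covariate it was 0.94 (SE 0.24, adjusted p = 0.0372). That fit called 1603 genes in all, 9.19% of those tested.

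**Figure D2:**
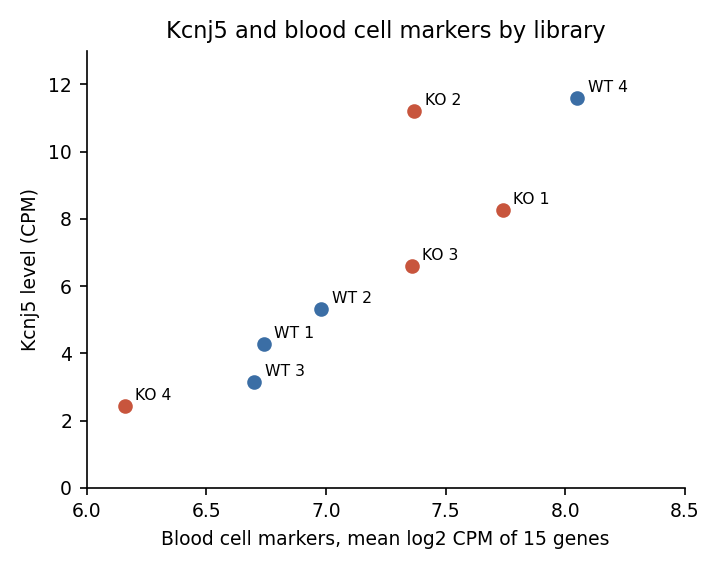
Kcnj5 level in CPM against the mean log2 CPM of 15 blood cell markers, with 1 labelled point per library (WT blue, KO red). KO replicate 4, at 2.42 CPM, is lowest on both axes, and WT replicate 4, at 11.6 CPM, is highest on both.

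Gabbr1 (ENSMUSG00000024462, chromosome 17, 37045966 to 37075067, plus strand), the gene for the GABA-binding subunit of the receptor, was lower in every KO library than in every WT library but did not pass the test over all genes. WT replicates 1 to 4 were at 39.6, 42.0, 40.4 and 44.9 CPM, and KO replicates 1 to 4 at 28.3, 30.2, 28.1 and 32.2 CPM. The gap between the groups was wider than the range within either of them, and the 2 libraries that stood apart were the highest of their own group. The KO level was 0.711 times that of WT, with a 95% interval of 0.613 to 0.826 (edgeR log2 fold change -0.49, SE 0.10, adjusted p = 0.0728). The exact permutation p of 0.0286 is the smallest that 4 against 4 can give, and 5.77% of the 17450 tested genes had KO wholly below WT in the same way. By unadjusted edgeR p (0.000462) Gabbr1 was among the first 110 of the 17450 genes.

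**Figure D3:**
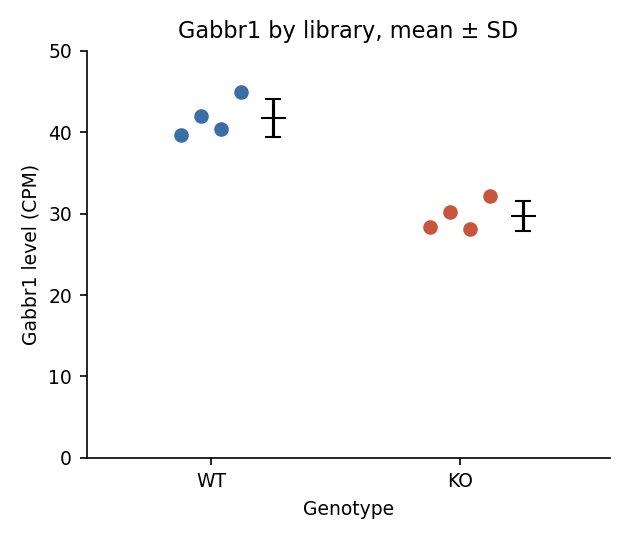
Gabbr1 level in CPM, with 1 point per library for WT (blue) and KO (red) and the mean ± SD of the 4 mice beside them. The KO libraries lie between 28.1 and 32.2 CPM and the WT libraries between 39.6 and 44.9 CPM.

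The call of Gabbr1 depended on the method. DESeq2 (adjusted p = 0.000666) and limma-voom with quality weights (adjusted p = 0.0221) both called it at a log2 fold change of -0.49, where these tools called 6.45% and 4.02% of the genes they tested, and 2.55% and 1.61% as lower in KO. In edgeR it passed with the muscle marker level (-0.48, adjusted p = 0.0182) or the blood marker level (-0.49, adjusted p = 0.0167) as a covariate, and without both libraries numbered 4 (-0.49, adjusted p = 0.0413). These fits called 9.19%, 8.38% and 2.62% of all genes tested, and without both libraries numbered 4 KO lay wholly below WT for 14.7%. Leaving out 1 library at a time gave log2 fold changes of -0.53 to -0.46, and edgeR adjusted p values of 0.0925 to 0.235.

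Genes with a long summed exon length tended to be lower in KO, and Gabbr1 is one of these long genes. Its 7764 exonic bases place it in the ninth of 10 equal groups of tested genes by exon length (6960 to 9240 bases), where the median log2 fold change was -0.12 and 11.8% of genes had KO wholly below WT. In the shortest group the median was 0.21 and in the longest -0.19. Within its own length group, 9.53% of genes had a lower log2 fold change than Gabbr1. After removal of each library's trend over exon length, the log2 fold change of Gabbr1 was -0.35 (SE 0.10, edgeR adjusted p = 0.156).

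**Figure D4:**
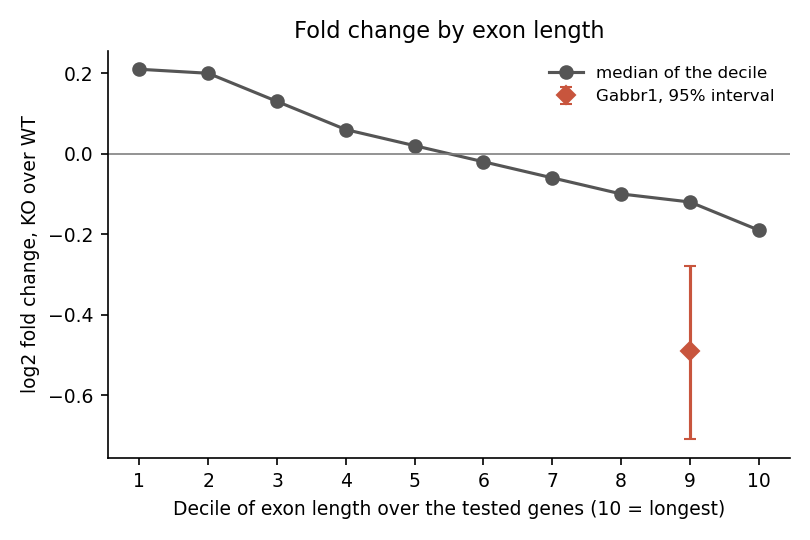
Median log2 fold change of KO over WT in 10 equal groups of tested genes by exon length (grey), with Gabbr1 and its 95% interval in its own length group (red). The medians fall from 0.21 in the shortest to -0.19 in the longest genes, and Gabbr1 lies at -0.49.

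No gene of any marker list was called by edgeR, and DESeq2 called 4, which are named here. DESeq2 called 6.45% of all genes that it tested. The part of these lists in the difference of Gabbr1 was not tested beyond the 2 covariates above. The summed level of 6 smooth muscle markers was 1704 to 3015 CPM (WT) and 3062 to 5025 CPM (KO), without overlap, and most of it was Des, which skeletal muscle also expresses, at 2385 ± 595 CPM (WT) against 3469 ± 889 CPM (KO). The other 5 genes of the list summed to 167 to 200 CPM (WT) and 175 to 253 CPM (KO), which overlapped. Cnn1 of the same list had a log2 fold change of 1.14 (edgeR adjusted p = 0.143, DESeq2 adjusted p = 0.0411). Of 10 Schwann cell markers, which would mark nerve in the sample, 9 had positive log2 fold changes, with summed levels of 113 to 156 CPM (WT) and 152 to 189 CPM (KO). Pmp22 led that list and Prx had its smallest p, at 0.45 (edgeR adjusted p = 0.184). Neuron markers summed to 17.9 to 26.7 CPM (WT) and 12.9 to 41.7 CPM (KO), led by Uchl1. The synaptic gene Snap25, chosen after its values were seen, had 0 counts in every WT library and at most 4 in a KO library. Osteoblast and osteocyte markers were mostly on the negative side, 11 of 14, with a median log2 fold change of -0.25. Runx2, a regulator of bone formation with 8837 exonic bases, was at -0.43 (edgeR adjusted p = 0.130). The 3 on the positive side, named after their values were seen, were Bglap (0.37), Bglap2 (0.27) and Pdpn (0.04). Bglap and Bglap2 are short, at 618 and 471 exonic bases. The median over all tested genes was -0.01, and 51.4% of them were lower in KO. Endothelial markers (median 0.03), osteoclast markers (0.17) and blood cell markers (0.09) had summed levels that overlapped between the groups. The sums of adipocyte markers (0.58) and skeletal muscle markers (0.34) overlapped as well. Some single genes of the marker lists did not overlap. Prx and Des were higher in every KO library than in every WT library, and Runx2 was lower in every KO library. All 7 adipocyte markers had positive log2 fold changes, and Fabp4, at 0.58 (edgeR adjusted p = 0.160, DESeq2 adjusted p = 0.0478), was higher in every KO library than in every WT library. The same held for 2 of 16 skeletal muscle markers, Tnni2 at 0.80 (edgeR adjusted p = 0.128, DESeq2 adjusted p = 0.00156) and Pvalb, chosen after its values were seen, at 0.77 (edgeR adjusted p = 0.155, DESeq2 adjusted p = 0.00878). Over all tested genes, KO lay wholly above WT for 7.34% and wholly below for 5.77%. Unadjusted edgeR p was under 0.05, higher in KO, for 5 of 10 Schwann cell and 3 of 6 smooth muscle markers. It was so for 2 of 16 skeletal muscle, 1 of 7 adipocyte and 1 of 8 endothelial markers. Lower in KO at that threshold were 2 of 14 osteoblast and osteocyte and 1 of 15 blood cell markers. The shares over all tested genes were 9.59% higher and 8.59% lower.

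The 5 genes whose level was most like that of Gabbr1 over the 8 libraries were Mbd1, Atxn2l, Cherp, Med15 and Zswim8. Their Pearson r of log2 CPM with Gabbr1 was 0.992, 0.986, 0.985, 0.984 and 0.984, the highest among 14668 tested genes with a mean of at least 1 CPM. The 8 points share the 2 genotypes, and with each group's mean removed the values were 0.806 (Zswim8) to 0.910 (Mbd1). These values are high partly because the genes were picked for their likeness to Gabbr1. Their negative log2 fold changes, from -0.31 for Mbd1 to -0.75 for Atxn2l, follow from that choice too, as Gabbr1 was lower in every KO library. Their exonic bases ran from 4621 (Cherp) to 11642 (Med15). None of the 5 passed in edgeR (adjusted p = 0.0714 to 0.135).

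Gabbr2 (ENSMUSG00000039809, chromosome 4, 46662305 to 46991873, minus strand), the gene for the coupling subunit, was at the edge of detection in both genotypes. In order of replicate, the WT libraries held 6, 7, 1 and 10 counts and the KO libraries 0, 3, 9 and 5. The groups overlapped, at 0.164 ± 0.0898 CPM (WT) against 0.140 ± 0.122 CPM (KO), with an exact permutation p of 0.800. The fold of KO over WT in the unfiltered edgeR fit was 0.835, with a 95% interval of 0.269 to 2.59 (adjusted p = 0.910), and the log2 fold change turned from -0.26 to 0.15 without KO replicate 1. A change of the size of that of Gabbr1 was thus not detectable at this depth.

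Among the 3 members that passed the low-count filter, 0 were called by edgeR over all genes, where 0.0115% of the genes tested were called and 0.00573% were called as lower in KO. Gabbr1 alone of these 3 had an unadjusted p under 0.05, against 18.2% of all genes tested, 8.59% lower and 9.59% higher in KO. Kcnj6, Kcnj9 and Gabbr2 did not pass the filter. None of the 6 was called in the edgeR fit without it, where 0.228% of 31084 genes were called and 0.0579% were called as lower in KO.

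**Figure D5:**
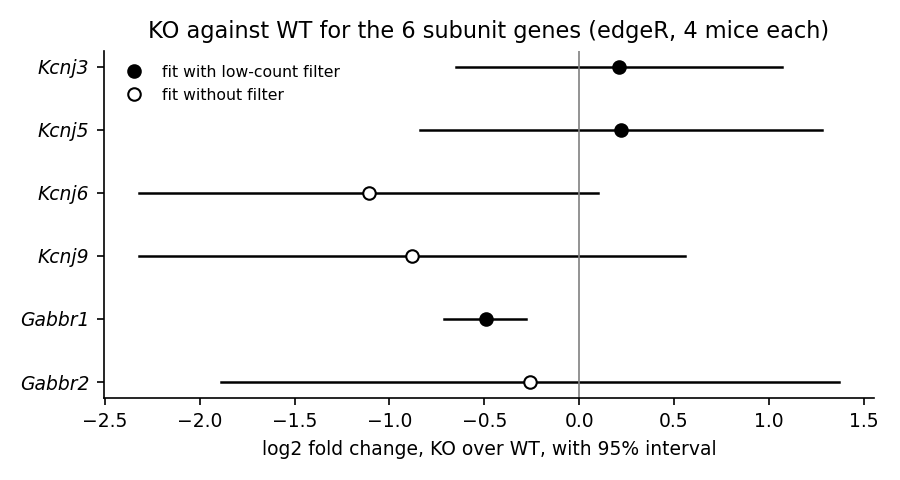
Log2 fold change of KO over WT for the 6 genes in edgeR with 95% intervals, from the filtered fit (filled points) or the fit without a low-count filter (open points), 4 mice per group. The interval of Gabbr1, -0.71 to -0.28, is the only one of the 6 that lies wholly on 1 side of 0, before any adjustment for the number of genes.

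Of 7 genes for proteins that bind the GABA-B receptor or form its auxiliary subunits, 4 were tested, 0 were called and 3 had negative log2 fold changes (median -0.25). By unadjusted edgeR p under 0.05, 0 of them were higher and 0 lower in KO, and DESeq2 called 0 and limma-voom 0. Over all genes tested, 9.59% were higher and 8.59% lower at that threshold, DESeq2 called 6.45% and limma-voom 4.02%. These shares hold for the gene lists that follow as well. Kctd12b, an auxiliary subunit gene, was at 8.97 ± 1.64 CPM (WT) against 7.39 ± 0.803 CPM (KO, edgeR adjusted p = 0.408). Pianp, whose product binds the extracellular part of the Gabbr1 product, was at 0.795 ± 0.255 CPM (WT) against 0.534 ± 0.165 CPM (KO, edgeR adjusted p = 0.427).

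Of 11 genes that make, carry or break down GABA, 7 were tested and 0 were called (median log2 fold change -0.01). With an unadjusted edgeR p under 0.05, 0 of them were higher and 1 lower in KO, and DESeq2 called 0 and limma-voom 0. The shares over all genes tested were 9.59% higher and 8.59% lower. Gad1 and Gad2, the 2 genes of GABA synthesis, chosen after their values were seen, held 79 and 4 counts over all 8 libraries and did not pass the filter. Abat, which starts the breakdown of GABA, was at 6.07 ± 0.932 CPM (WT) against 4.39 ± 0.667 CPM (KO), with a log2 fold change of -0.47 (edgeR adjusted p = 0.205). The KO library with the most Abat, replicate 3 at 5.11 CPM, lay above the WT library with the least, replicate 2 at 5.06 CPM.

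GABA-A receptor subunits form the chloride channels that GABA opens directly. Of 19 such genes, 10 were tested, 2 had no count in any library and 0 were called (median log2 fold change -0.21). By unadjusted edgeR p under 0.05, 1 of them were higher and 0 lower in KO, and DESeq2 called 0 and limma-voom 0. Among all genes tested 9.59% were higher and 8.59% lower at that threshold. Their summed level was 6.57 to 10.6 CPM (WT) and 7.03 to 10.9 CPM (KO). Gabrr2, a rho subunit gene, held 10 to 13 counts per WT library, and 42, 26, 31 and 9 in the KO libraries in order of replicate. KO replicate 4 lay within the WT range in CPM, and the log2 fold change was 1.33 (edgeR adjusted p = 0.138). Gabra3 had a log2 fold change of -0.60 (edgeR adjusted p = 0.430).

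Gnai2 and Gnai3, which encode G protein alpha subunits that link receptor and channel, lay above all 6 members per kilobase, at 64.2 and 14.7 RPKM in WT bone, where Gabbr1 was at 5.37 RPKM. All 5 Gi/o alpha genes were tested, with log2 fold changes of -0.08 to 0.07 and 0 calls. For these genes no unadjusted edgeR p was under 0.05 (0 higher, 0 lower), and DESeq2 and limma-voom called 0. Gnai2 was at 243 ± 58.6 CPM (WT) against 230 ± 37.8 CPM (KO) and Gnai3 at 47.9 ± 6.35 CPM (WT) against 50.4 ± 10.1 CPM (KO). Of 15 beta and gamma genes 14 were tested, 0 were called by edgeR, and the median was -0.03. At an unadjusted p under 0.05 the count was 1 higher and 0 lower, with 0 calls by DESeq2 and 1 by limma-voom. Among all genes tested 9.59% were higher and 8.59% lower, and limma-voom called 4.02%. Gng11, a gamma subunit gene, had the smallest p at 31.3 ± 4.89 CPM (WT) against 47.7 ± 14.3 CPM (KO), with a log2 fold change of 0.61 (edgeR adjusted p = 0.159), followed by Gng5 at 0.27. KO replicate 1, at 68.4 CPM of Gng11, lay furthest from the rest, and the groups overlapped.

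Of 27 genes for other receptors that signal through Gi/o proteins, 9 were tested, 3 had no count in any library and 0 were called by edgeR (median log2 fold change 0.14). By unadjusted edgeR p under 0.05, 1 of them were higher and 0 lower in KO, and DESeq2 called 1 and limma-voom 0. Among all genes tested 9.59% were higher and 8.59% lower, and DESeq2 called 6.45%. Adra2c, an alpha-2 adrenergic receptor gene, was at 1.08, 0.824, 1.42 and 1.25 CPM in WT replicates 1 to 4 and 2.57, 2.20, 1.6 and 2.01 CPM in KO replicates 1 to 4. Every KO library lay above every WT library, as for 7.34% of the tested genes, with a log2 fold change of 0.87 (edgeR adjusted p = 0.125, DESeq2 adjusted p = 0.0295). The groups of either direction did not overlap for 13.1% of tested genes. The neuropeptide Y receptor gene Npy1r was at 3.47 ± 0.267 CPM (WT) against 4.17 ± 1.43 CPM (KO, edgeR adjusted p = 0.596).

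All 10 genes for regulators of these channels and receptors were tested, with 0 calls and a median log2 fold change of 0.05. By unadjusted edgeR p under 0.05, 2 of them were higher and 1 lower in KO, and DESeq2 called 0 and limma-voom 0. The shares over all genes tested were 9.59% higher and 8.59% lower. Grk3, a kinase that switches off active receptors, was at 32.8 ± 6.15 CPM (WT) against 25.5 ± 3.87 CPM (KO), with a log2 fold change of -0.37 (edgeR adjusted p = 0.267). Rgs9, which speeds the shut-off of the G protein, was at 0.395 ± 0.193 CPM (WT) against 0.787 ± 0.403 CPM (KO), with a log2 fold change of 1.01 (edgeR adjusted p = 0.268). Snx27, chosen after its values were seen, encodes a sorting protein that binds the tail of GIRK3, and was at 47.8 ± 4.68 CPM (WT) against 44.8 ± 2.98 CPM (KO, edgeR adjusted p = 0.706).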

How the data were processed

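Bulk RNA sequencing libraries of 8 mice were used. Values are raw counts, as deposited by the authors in a single table with 1 row per Ensembl gene. The submitters' processing notes name bcl2fastq 2.17, STAR 2.5.2b, featureCounts, Subread 1.5.2 and build mm10. Annotation, strand setting and handling of shared reads: not given in the sources used here. GENCODE M21 on GRCm38, the same build, gave symbols for 49056 of 49315 gene IDs, with coordinates and exon lengths. Groups and replicate numbers came from the sample titles.

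The genotypes were tested by edgeR 4.0.16 under R 4.3.3 (quasi-likelihood test with robust dispersion, TMM, filterByExpr, group as the only term), with Benjamini-Hochberg adjustment over 17450 genes and a threshold of 0.05. Members below the filter took their values from the same fit on all 31084 genes with a count. For single levels, an exact permutation test (two-sided) ran over the 70 arrangements of libraries. Log2 CPM used a prior count of 2. Intervals are 95%. Chi-square values of library pairs, at least 39.4 per degree of freedom, showed no repeated library. Alternatives used DESeq2 1.42.0, limma 3.58.1, other scaling and filters, covariates, loess removal of the length trend (span 0.3) and left-out libraries. The test was checked on simulated data.

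Named genes are the 6 members, up to 2 tested genes with the smallest p per pathway list, the most abundant and the lowest-p gene of each marker list, the 5 genes most like Gabbr1, and genes overlapping a member. One gene that this rule names is not reported here. The members, lists and settings were chosen with earlier results of these data known.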

Additional observations from a re-analysis of the deposited data

Results flagged for a closer look

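Kcnj9 in WT replicate 4 lay far from the other 3 WT libraries, at 0.534 CPM (23 counts) against 0.183 to 0.205 CPM, a gap of 0.937 of the group's range. It was the only 1 of 12 groups of 4 values, 6 genes in 2 genotypes, with a value past Dixon's 95% critical gap, and chance gives about 1 such group in 20. WT replicate 4 also lay at the end of the first principal component. Without it the log2 fold change of Kcnj9 was -0.34 in place of -0.88 (SE 0.78, edgeR adjusted p = 0.879).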

How the results depend on the processing

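The number of genes that edgeR called over the whole table, 2, depended on the settings. It was 994 with DESeq2, 701 with limma-voom, 71 without a low-count filter, 4 with the exon length trend removed, 1603 and 1463 with the muscle or blood marker level as a covariate, and 458 without WT replicate 4 and KO replicate 4. Leaving out 1 library gave 2 to 4 genes, the highest without KO replicate 4. Gabbr1 was lower in KO in 19 of 19 alternatives, at -0.60 to -0.35 (-0.53 to -0.46 over the left-out libraries), and passed in 5 of them: DESeq2 (-0.49), limma-voom (-0.49), the muscle (-0.48) and blood (-0.49) covariates, and without both replicates 4 (-0.49). Kcnj5 passed with the muscle covariate (0.94), and its log2 fold change lay between -0.08 (without KO replicate 2) and 0.75 (without WT replicate 4) when 1 library was left out, and at 1.03 without both replicates 4. Kcnj3 turned to -0.22 with limma-voom and lay between -0.04 and 0.44 over the left-out libraries. Gabbr2 lay between -0.87 and 0.15 over them, the highest without KO replicate 1. Kcnj6 (-1.55 to -0.85) and Kcnj9 (-1.20 to -0.34) were lower in KO in 17 of 17 alternatives each and passed in none, DESeq2 giving them no adjusted p. The cause of these shifts was not tested. The labels do not tie the replicate numbers to a litter or day, and same-numbered libraries did not deviate together (correlations of -0.568 to -0.166 over 4 pairs, with 0 libraries matched best by their own number). With the replicate number as a block, 1 gene was called, and Gabbr1 stayed at -0.49 (edgeR adjusted p = 0.481). At a few counts per library, only large changes of Kcnj6, Kcnj9 and Gabbr2 could have been detected.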
